A study of Caenorhabditis elegans with 4 samples.

Results

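Insulin/IGF signaling (IIS) in *C. elegans* was followed at the transcript level through 8 genes, from the receptor *daf-2* to the transcription factor *daf-16*, in worms with and without cisplatin. The genes were picked by name from the gene description of the deposited table, and each matched 1 of its 15408 rows. Worms of all stages of the wild-type strain N2 gave RNA for 4 libraries, 2 after 24 h in cisplatin (60 µg/ml, 20°C) and 2 untreated, with biological replicates numbered 1 and 2 in each group. Cisplatin is a platinum drug that crosslinks DNA and reacts with protein thiols. All 4 populations were wild type, and none was a *daf-2* or *daf-16* mutant. The study asked how worms respond to this drug and what part IIS has in that response.

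In the IIS pathway, insulin-like peptides act on DAF-2, a receptor tyrosine kinase, which recruits the phosphoinositide kinase AGE-1. AGE-1 makes the membrane lipid on which PDK-1 activates the kinases AKT-1, AKT-2 and SGK-1, and the phosphatase DAF-18 removes that lipid. AKT-1 and AKT-2 phosphorylate the FOXO factor DAF-16 and hold it in the cytoplasm, and when signaling falls DAF-16 enters the nucleus and drives genes of stress resistance, longevity and dauer formation. Most of this regulation acts on protein phosphorylation and location, which RNA levels do not report.

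For each gene and library the authors gave an FPKM value (fragments mapped to a gene, divided by its exon length and by all mapped fragments of the library), a level already corrected for gene length. The labels put the depth between 11 and 13 M reads a sample, and the table holds no read counts. The median FPKM over all 15408 genes was 9.25 and 12.29 in cisplatin replicates 1 and 2 and 6.64 and 12.73 in control replicates 1 and 2, so both libraries numbered 1 were lower and control replicate 1 was the lowest. The worms were a mixture of stages, and in such bulk RNA fewer cells of a type and less RNA per cell cannot be told apart. Of the markers tested, from all 6 stages and tissues looked at, 0 were at 0 FPKM in any library. Listed markers without a value, with a failed estimate or with a mean under 0.5 FPKM were left out first. A marker absent from every library could thus not be counted. Tested were 9 of 12 listed oocyte and eggshell genes, 6 of 8 intestinal genes and all listed moulting, yolk and neuronal genes. None of the 8 genes had an estimate that the authors' software marked as failed, and all 8 passed the minimum of a mean of 0.5 FPKM used here.

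The pathway genes spanned a wide range of levels, with the phosphatase and AKT-1 at the top and PDK-1 at the bottom. Mean FPKM over the 4 libraries was 99.9 for *daf-18*, 95.6 for *akt-1*, 40.9 for *daf-16*, 25.5 for *sgk-1*, 19.05 for *akt-2*, 17.8 for *daf-2*, 17.5 for *age-1* and 5.85 for *pdk-1*. *daf-18* and *akt-1* were not separated in this order, since their ranges overlapped and *daf-18* was the higher in 3 of 4 libraries. The ranges of *sgk-1* and *akt-2*, of *akt-2* and *daf-2* and of *daf-2* and *age-1* overlapped as well. Within libraries, *sgk-1* was above *akt-2* in all 4, *akt-2* above *daf-2* in 3 and *daf-2* above *age-1* in 2. The ranges of *akt-1* and *daf-16*, of *daf-16* and *sgk-1* and of *age-1* and *pdk-1* did not overlap. Against all 15065 genes tested, *daf-18* lay between the 88.6 and 92.9 percentile of level, *daf-16* between the 75.9 and 79.2 percentile and *pdk-1* down to the 35.9 percentile. The level of the authors' confidence bounds is not stated. The distance from the middle of the bounds to either bound ran from 3.82% of the value for *daf-18* to 22.03% for *pdk-1*. The bounds were not always centred on the value: *daf-18* in cisplatin replicate 2 was at 121.5 FPKM, with bounds of 112.6 and 121.9 FPKM. All 32 values lay within their bounds, against between 89.4% and 90.4% of the values of all genes.

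**Figure D1:**
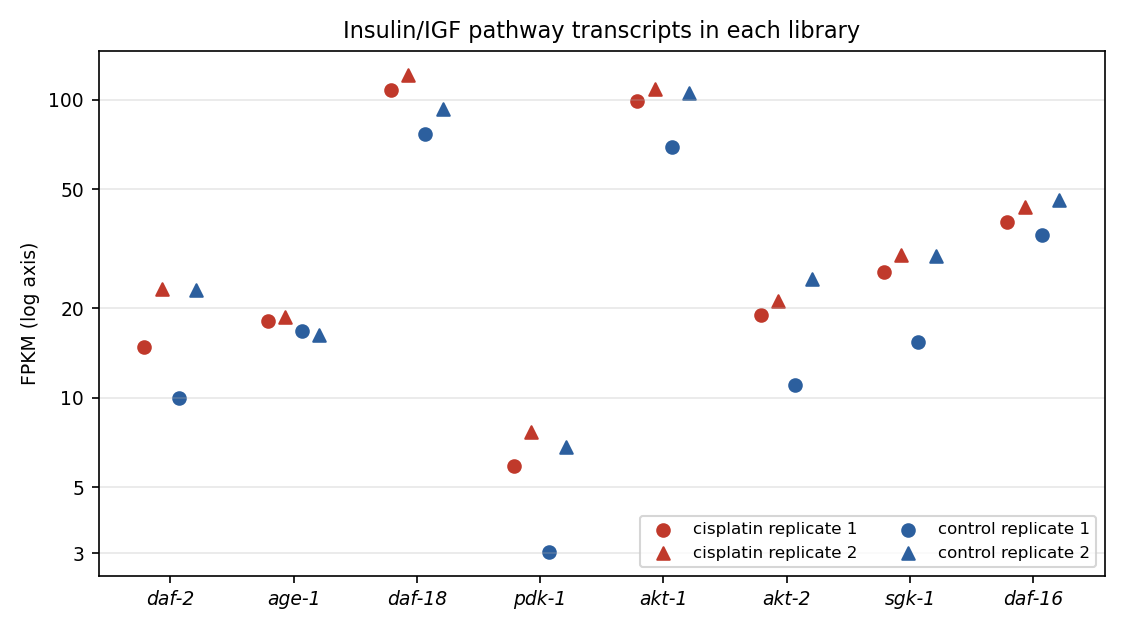
FPKM of the 8 pathway genes (x axis) on a log axis, with a point for each library: red for cisplatin, blue for control, circles for replicate 1 and triangles for replicate 2. Control replicate 1 is the lowest point of 7 genes, *age-1* being the exception, and only *age-1* and *daf-18* have both red points above both blue ones.

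At the membrane, the receptor transcript varied mainly between replicates and the kinase transcript hardly varied at all. *daf-2* (Y55D5A.5) lies on chromosome III from 2994514 to 3040846 on the minus strand in WBcel235, with 7 annotated transcripts whose reads the table does not separate. Its level was 14.8 and 23.2 FPKM in the treated libraries (replicates 1 and 2, the order kept throughout) and 9.98 and 23.1 FPKM in the controls. Both libraries numbered 2 were high and both numbered 1 low, and the groups overlapped. The log2 fold change, here the difference of the group means of log2(FPKM + 0.5), cisplatin minus control, was 0.28, with a limma standard error of 0.49 and a 95% interval from -0.91 to 1.46. On this scale the changes of genes with low FPKM are understated. *age-1* (B0334.8), the catalytic subunit of PI3K, lies on chromosome II from 11519328 to 11527054 on the minus strand. Its level was 18.1 and 18.7 FPKM in the treated libraries and, among controls, 16.8 and 16.3 FPKM, the narrowest range of the 8 genes, with the highest library 1.15 times the lowest. Both cisplatin libraries were above both controls, yet the log2 fold change was 0.15 (95% interval -0.60 to 0.89), and -0.058 once the libraries were scaled to 1 common median. The gene B0334.10, on the opposite strand, spans 244 of the exon bases of *age-1*. The sources used here do not state whether reads were counted by strand, and if not, reads of the 2 genes cannot be told apart there. Overlaps of *daf-16* (84 exon bases), *pdk-1* (15) and *akt-1* (8) with genes on the other strand were shorter.

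*daf-18*, which opposes AGE-1, had the smallest p-value of the 8 genes. *daf-18* (T07A9.6) lies on chromosome IV from 420011 to 425177 on the minus strand and has a single annotated transcript. It reached 108 and 122 FPKM after cisplatin against 76.6 and 93.3 FPKM in the controls, 115 ± 9.46 against 85.0 ± 11.8 FPKM (mean ± SD, n = 2 libraries each), so both cisplatin libraries were above both controls. Between the libraries of the same number, which the labels do not call paired, the level with cisplatin was higher, 1.41-fold in the libraries numbered 1 and 1.30-fold in those numbered 2. The log2 fold change was 0.44 with a standard error of 0.20 and a 95% interval from -0.04 to 0.92. It did not pass, with a p of 0.0672 and an adjusted p of 1.00 in limma, and 1.98% of all genes tested had a smaller p.

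Among the kinases, *pdk-1*, *akt-2* and *sgk-1* shared a low value in control replicate 1, and *akt-1* did so to a lesser degree. *pdk-1* (H42K12.1), which encodes the kinase that activates AKT and SGK, lies on chromosome X from 1321344 to 1327986 on the plus strand. In the treated libraries it was at 5.88 and 7.65 FPKM and in untreated worms at 3.04 and 6.83 FPKM, the lowest levels of the pathway. Its log2 fold change of 0.50 was the largest of the 8 genes, but its standard error was 0.64 and the groups overlapped. *sgk-1* (W10G6.2), the SGK kinase with roles in fat, growth and stress, lies on chromosome X from 16254842 to 16262122 on the minus strand. Its level was 26.5 and 30.2 FPKM in the treated libraries and 15.4 and 30.01 FPKM in untreated worms. The 2 libraries numbered 2 were nearly equal, and the log2 fold change was 0.39 (standard error 0.37).

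The paralogs *akt-1* and *akt-2* both encode AKT kinases and differed several-fold in level. *akt-1* (C12D8.10) lies on chromosome V from 10248905 to 10252845 on the plus strand. After cisplatin it was at 99.2 and 108 FPKM and in the controls at 69.3 and 106 FPKM, so that 3 libraries were close together and control replicate 1 was low. *akt-2* (F28H6.1) lies on chromosome X from 14147700 to 14152070 on the plus strand. It was at 19.01 and 21.1 FPKM after cisplatin and at 11.0 and 25.1 FPKM in the controls, with both cisplatin libraries between the controls. The log2 fold changes were 0.28 (standard error 0.25) and 0.26 (standard error 0.44). The level of *akt-1* over that of *akt-2* was 5.22 and 5.14 with cisplatin and 6.30 and 4.21 without, so the ratios of the treated worms lay within the range of the controls.

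The transcript of the FOXO factor itself had the smallest fold change of the 8. *daf-16* (R13H8.1) lies on chromosome I from 10750498 to 10776703 on the plus strand, with 11 annotated transcripts counted together. Its level was 38.8 and 43.6 FPKM after cisplatin and 35.1 and 45.9 FPKM in the controls. The cisplatin values lay between the controls, higher in the pair numbered 1 and lower in the pair numbered 2. Its log2 fold change was 0.03 with a standard error of 0.24, and the 95% interval ran from -0.55 to 0.62. Its sign depended on scaling, at -0.17 with libraries set to 1 common median and -0.078 with quantile normalization. It was the single gene of the 8 below the median fold change of all genes, by 0.09 on the log2 scale.

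**Figure D2:**
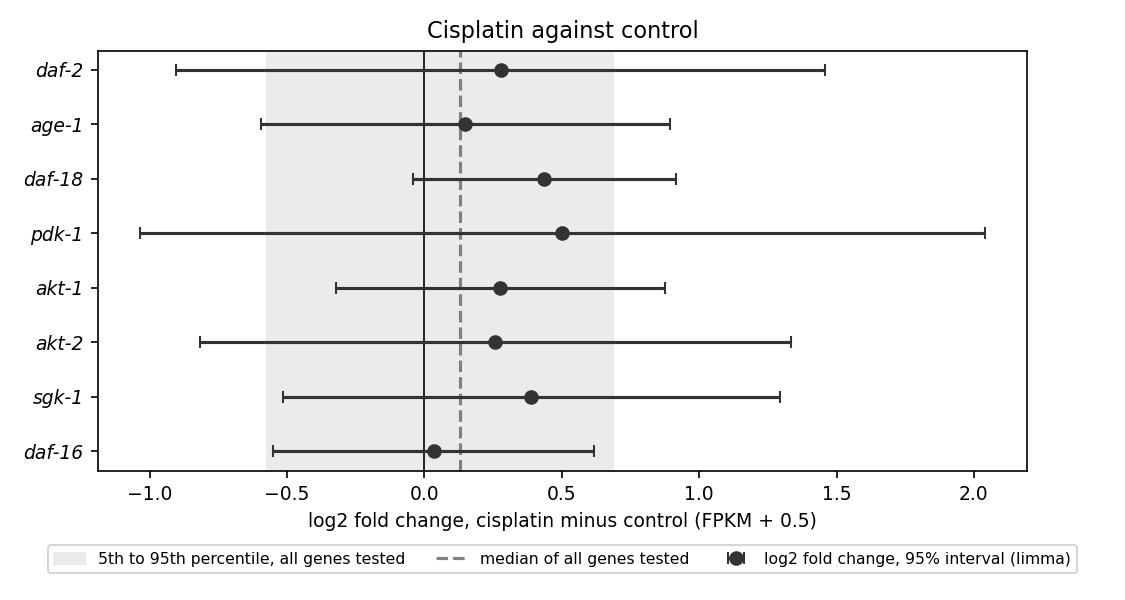
Log2 fold change of each gene, cisplatin minus control on the log2(FPKM + 0.5) scale (x axis), as points with 95% intervals from limma over 2 libraries against 2. The grey band runs from the 5th to the 95th percentile of the 15065 genes tested (-0.57 to 0.68), the dashed line is their median of 0.13, and all 8 intervals include 0.

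For the question whether cisplatin altered the pathway at the RNA level, limma was run on log2(FPKM + 0.5) of 15065 genes, with the p-values adjusted over all of these genes. At an adjusted p of 0.05, 0 of the 8 pathway genes passed in either direction, against 0% of all genes called higher and 0% called lower. Before adjustment, 0 of 8 reached a p of 0.05 or less, a level at which 1.12% of all genes were higher and 0.445% lower. The adjusted p was 1.00 for each of the 8 genes. With 2 libraries against 2 the intervals are wide, and those of *daf-2*, *pdk-1*, *akt-2* and *sgk-1* include a log2 change of 1, so a p that misses the threshold does not show equal levels. The fit has no term for replicate number, so a replicate difference common to both groups adds to the width. With such a term the standard error was 0.25 rather than 0.49 for *daf-2* and 0.25 rather than 0.44 for *akt-2*, on 1 residual degree of freedom.

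In direction, the 8 genes leaned upward with cisplatin, as the whole transcriptome did in the libraries numbered 1. All 8 were higher in the libraries numbered 1, as were 72.9% of all genes, and 6 of 8 were higher in those numbered 2, where the share of all genes was 49.6%. For *daf-2* and *sgk-1* this second difference was as small as 0.01 on the log2 scale. Both pairs were higher for 6 of 8 (38.4% of all genes), and none of the 8 was lower in both (15.7%). Groups that did not overlap, with cisplatin above, were seen for 2 of 8, *age-1* and *daf-18*, against 15.1% of all genes. The median log2 fold change was 0.28 over the 8 genes and 0.13 over all genes tested.

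**Figure D3:**
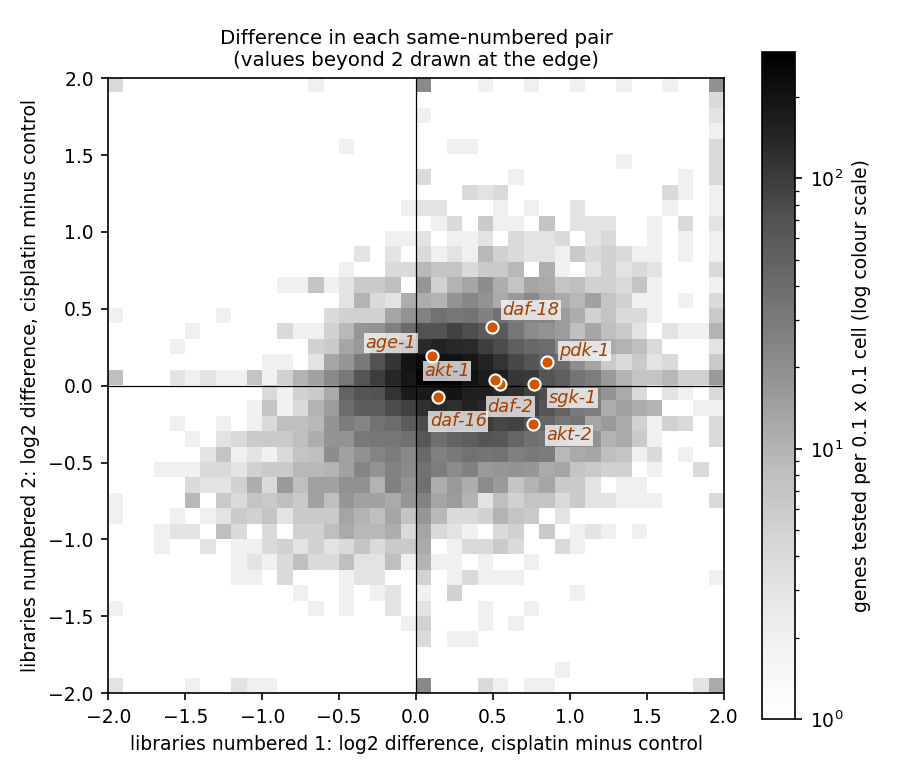
Log2 difference, cisplatin minus control, in the libraries numbered 1 (x axis) and in those numbered 2 (y axis), with the 8 genes in orange over the 15065 genes tested, shaded by number per cell on a log scale. The 8 genes spread from 0.11 to 0.85 along the x axis but only from -0.25 to 0.38 along the y axis, where *daf-18* is the highest and *akt-2* the lowest.

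The upward lean lay mostly in the libraries numbered 1, with a median log2 difference of 0.53 over the 8 genes against 0.02 in those numbered 2. Over all genes these medians were 0.25 and -0.0027. Control replicate 1 was the lowest library for 7 of the 8 genes, as it was for 59.5% of all genes, and the controls lay further apart than the treated libraries for all 8 genes, as for 75.6% of all genes. With control replicate 1 left out, the log2 fold changes of *daf-2* and *akt-2* were -0.31 and -0.32, those of *pdk-1*, *akt-1*, *sgk-1* and *daf-16* were -0.022, -0.028, -0.083 and -0.16, and only *daf-18* (0.30) and *age-1* (0.17) stayed above 0. The median of all genes in that fit was -0.15. With 1 control left out, both cisplatin replicates are set against the other control alone, so the difference between replicates is not balanced. Within the libraries numbered 2, only *akt-2* (-0.25) and *daf-16* (-0.07) were lower with cisplatin. Without control replicate 2 the values instead reached 1.03 for *pdk-1*, 0.86 for *daf-2* and *sgk-1*, 0.84 for *akt-2* and 0.58 for *akt-1* and *daf-18*, with the median of all genes at 0.42. *daf-18* was above the median of all genes in each of the 4 fits with a library left out, by 0.15 to 0.45. *pdk-1*, *sgk-1* and *akt-1* were too, by as little as 0.13, 0.07 and 0.07. Without control replicate 1, *akt-2* and *daf-2* lay below that median by 0.17 and 0.15.

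**Figure D4:**
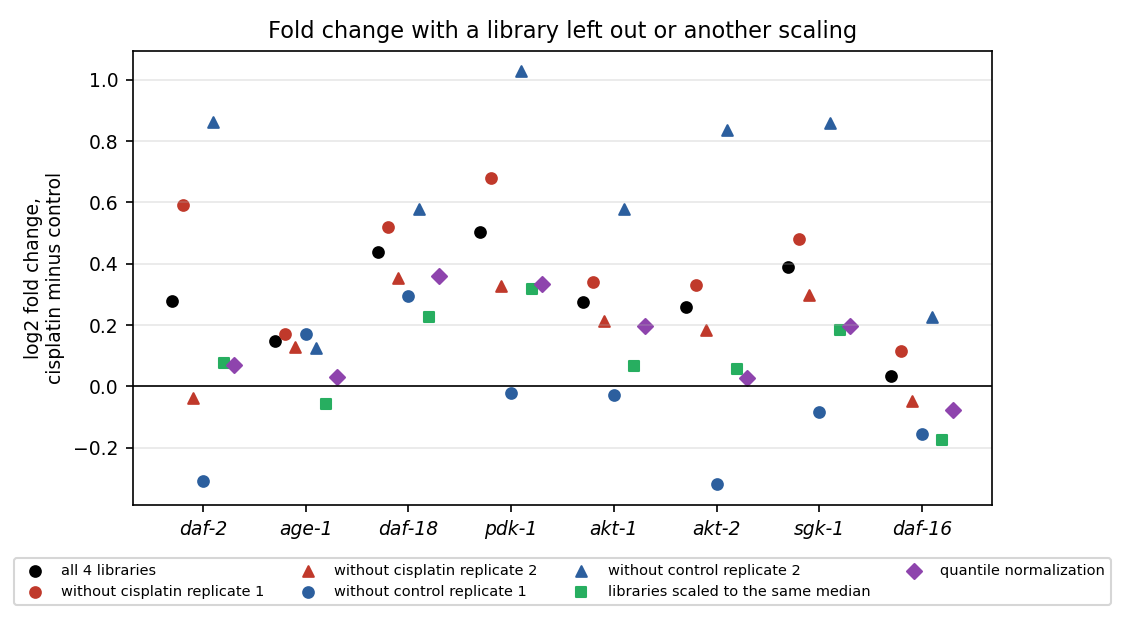
Log2 fold change of each gene, cisplatin minus control (y axis), with all 4 libraries (black), with a library left out (red and blue) and under 2 other scalings (green and purple). The blue circles, without control replicate 1, lie below 0 for 6 genes, whereas *daf-18* stays between 0.23 and 0.58 under every setting drawn.

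Most of the pathway genes, like most genes, differed more between the control replicates than between treatments. Replicate 2 was above replicate 1 for all 8 genes with cisplatin and for 7 of 8 without. In both groups at once it was so for 7 of 8, against 64.6% of all genes. The receptor *daf-2* differed most, by 0.63 with cisplatin and 1.17 without on the log2 scale, followed in the controls by *akt-2* (1.16), *pdk-1* (1.05) and *sgk-1* (0.94). For *daf-18* the replicates differed by 0.17 and 0.28, for *daf-16* by 0.16 and 0.38 and for *age-1* by 0.04 and -0.04. For 6 of the 8 genes the difference between the controls was larger than the fold change with cisplatin, as for 81.7% of all genes, the exceptions being *age-1* and *daf-18*. The 2 measures are unlike, since the first is taken between single libraries and the second between means of 2 libraries, which vary less. The 3 kinase genes on chromosome X, *pdk-1*, *akt-2* and *sgk-1*, all had a control difference above the median of the 2145 genes tested on X (0.88), which itself was the highest of the 6 chromosomes.

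Markers of larvae, neurons and oocytes moved with the replicate number as well, and those of sperm and yolk with treatment. As markers of larvae, all 14 moulting genes stood higher in replicate 2 of both groups, as did 64.6% of all genes. The summed level of the 14 was 175 and 469 FPKM in cisplatin replicates 1 and 2 and 150.2 and 544 FPKM in the controls. Of 13 neuronal genes 12 were higher in replicate 2 in each group, with a summed level of 634 and 695 FPKM after cisplatin and 532 and 717 FPKM in untreated worms. Their median log2 difference between replicates was 0.45 with cisplatin and 1.16 without, where the medians of all genes were 0.28 and 0.64. All 9 oocyte and eggshell genes went the other way, at 2964 and 2256 FPKM after cisplatin and 2908 and 1998 FPKM in untreated worms. With cisplatin, 42 of 43 sperm genes were lower in both same-numbered pairs (15.7% of all genes), from 7237 and 6029 FPKM in the controls to 2952 and 3519 FPKM. The 6 yolk genes, at 17217 and 17015 FPKM after cisplatin and 22946 and 20458 FPKM in untreated worms, were lower in both pairs, and the 6 intestinal genes lay at 2410 and 1924 FPKM after cisplatin and 1947 and 1435 FPKM in untreated worms. In the controls the intestinal sum, mostly *asp-1*, ran against most of its genes, since 5 of 6 were higher in control replicate 2 than in control replicate 1. The sum was also higher with cisplatin in both pairs, but only 2 of the 6 genes were. The median log2 difference of the 6, cisplatin minus control, was 0.36 in the libraries numbered 1 and -0.12 in those numbered 2. The part of these differences in the levels of the pathway genes was not tested.

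**Figure D5:**
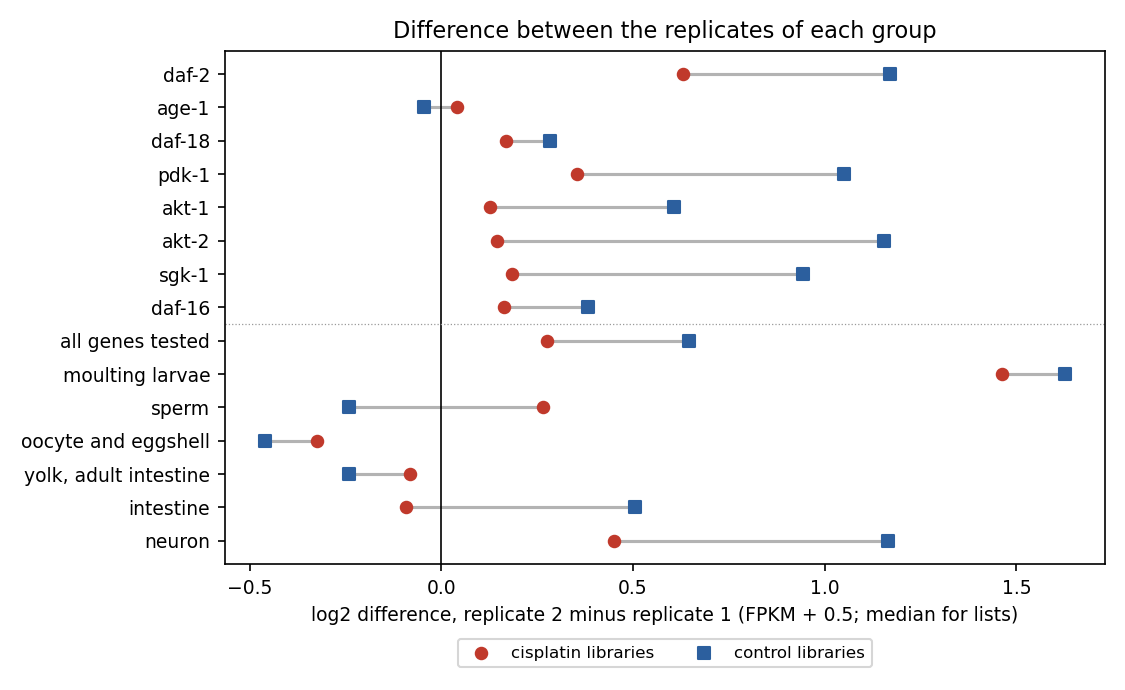
Log2 difference between replicate 2 and replicate 1 (x axis) within the cisplatin libraries (red circles) and within the control libraries (blue squares), for each pathway gene, for the median of all genes tested and for the median of each marker list. *daf-2*, *pdk-1*, *akt-2* and *sgk-1* lie far to the right in the controls, whereas *age-1* lies at about 0. The control medians of moulting, neuronal and intestinal genes (1.63, 1.16 and 0.51) and of all genes (0.64) are on that right side too.

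Ratios between genes of a library do not depend on how that library was scaled. The phosphatase over its opposing kinase, *daf-18* over *age-1*, was 5.96 and 6.51 with cisplatin and 4.56 and 5.73 without. *daf-18* over *daf-16* was 2.78 and 2.79 with cisplatin and 2.18 and 2.03 without. In both ratios the groups did not overlap, whereas they overlapped for *daf-18* over *daf-2*, *pdk-1*, *akt-1*, *akt-2* and *sgk-1*. *daf-18* thus stood above over 2 of the other 7 genes. It did so over 28.9% of the 14608 genes with a value above 0 in every library. Of all 28 pairs of pathway genes, 7 had ratios that did not overlap between the groups. If group labels were random, 2 libraries against 2 would separate in either direction with a probability of 0.33. The share over pairs of all genes was not computed, so this count is not read as a result. Relative to *daf-16*, 4 of the other 7 genes were higher in both cisplatin libraries than in both controls, namely *daf-18*, *pdk-1*, *akt-1* and *sgk-1*, as were 14.7% of all genes. *akt-1* over *daf-16* was 2.55 and 2.49 against 1.97 and 2.30, and *sgk-1* over *daf-16* was 0.683 and 0.693 against 0.438 and 0.653. The ratios were looked at after the levels had been seen, and no test was made of them.

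The profiles of the 8 genes over the 4 libraries were compared with those of all genes by the distance between values of log2(FPKM + 0.5), each centred on its own mean. The closest pair within the pathway was *pdk-1* and *sgk-1*, at a distance of 0.18. Outside it, the nearest profiles were those of *unc-112* and *aman-2* for *daf-2*, *atg-7* and *tkt-1* for *age-1*, and *wdr-23* and *F47G3.3* for *daf-18*. They were *nhx-5* and *vps-53* for *akt-1*, *tba-9* and *T03G6.3* for *akt-2*, *F21F8.6* and *prk-1* for *sgk-1*, *Y32F6A.4* and *ugt-9* for *pdk-1* and *Y25C1A.8* and *Y47H9C.8* for *daf-16*. *F21F8.6* stayed below 1 FPKM in every library, where the added 0.5 shrinks its differences, so its likeness to *sgk-1* holds on this scale and not in FPKM. *wdr-23*, which encodes the adaptor that targets SKN-1 for degradation, was at 55.3 and 61.3 FPKM after cisplatin and at 38.5 and 47.1 FPKM in the controls. With 4 libraries such likeness is common: between 1.86% of all genes for *pdk-1* and 7.41% for *age-1* lay within a distance of 0.2.

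Among the adaptors of the pathway and its TOR branch, *rict-1* had the highest fold change. It encodes Rictor, the defining subunit of TOR complex 2, which acts upstream of SGK-1 and AKT. It was at 31.02 and 31.5 FPKM after cisplatin and at 13.2 and 17.4 FPKM in the controls, so the groups did not overlap. Its log2 fold change was 1.02 (standard error 0.30), with an adjusted p of 1.00 in limma and an unadjusted p of 0.0125. Of the 17 genes on this list 0 passed, 11 stood higher in both pairs and 0 lower (38.4% and 15.7% of all genes). Their median was 0.17, or 0.04 above that of all genes (-0.13 to 0.17 with a library left out). At the lower end stood *rheb-1*, the small GTPase that activates TOR, at 46.3 and 43.8 against 51.3 and 43.0 FPKM, and *aap-1*, the adaptor subunit that binds AGE-1, at 47.3 and 38.6 against 45.8 and 37.2 FPKM. The AMP-activated kinase gene *aak-2* had 33.2 and 35.5 against 20.5 and 36.4 FPKM.

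Regulators and cofactors of DAF-16 lay near the median of all genes (-0.18 to 0.10 relative to it with a library left out), and the median of the insulin-like ligands moved with the library left out. Of 27 regulators tested (32 listed) 0 passed, 10 stood higher in both pairs and 4 lower (38.4% and 15.7% of all genes), and their median was 0.16. Both cisplatin libraries were above both controls for 7 of the 27 (15.1% of all genes). The same held for 3 of the 27 insulin-like peptide genes and for 2 of the 17 adaptor and TOR genes. The extremes were *daf-9*, a cytochrome P450 of steroid hormone synthesis, at 1.70 and 2.04 against 0.918 and 1.91 FPKM, and *prmt-1*, an arginine methyltransferase that acts on DAF-16, at 426 and 370 against 625 and 406 FPKM. *hlh-30*, the worm TFEB, had 43.3 and 45.2 against 27.1 and 46.2 FPKM, and *eak-3* stayed below 1 FPKM in every library. Of 27 insulin-like peptide genes tested (40 listed) 0 passed, 10 stood higher in both pairs and 4 lower, and their median was 0.06. Relative to all genes this median was -0.07, but -0.53 and 0.26 with control replicates 1 and 2 left out in turn, and 0.18 and -0.41 with cisplatin replicates 1 and 2 left out. *ins-27* had 63.9 and 48.3 against 34.5 and 47.6 FPKM, *ins-19* had 23.6 and 10.7 against 43.8 and 15.9 FPKM, and *ins-37* had 4.12 and 6.97 against 2.17 and 6.67 FPKM. *ins-11* is listed at 0 in cisplatin replicate 1 and had 2.41 FPKM in cisplatin replicate 2 and 0.756 and 3.17 FPKM in the controls.

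Among genes known to be raised by DAF-16, the share higher in both pairs was near that of all genes, and the median fold change was above that of all genes by 0.27 on the log2 scale (0.14 to 0.45 with a library left out). Of 34 such genes tested (39 listed) 9 had both cisplatin libraries above both controls. The share was 15.1% of all genes, with 7 of 27 regulators and 3 of 27 insulin-like peptide genes. Of the 34 genes, 14 stood higher in both pairs and 2 lower (38.4% and 15.7% of all genes), and 0 passed in limma. Their median log2 difference was 0.64 in the libraries numbered 1 and -0.0014 in those numbered 2, where the medians of all genes were 0.25 and -0.0027. The highest were *gst-10*, a glutathione S-transferase gene, at 207 and 280 against 72.5 and 147 FPKM, and *lea-1*, a gene of desiccation tolerance, at 305 and 313 against 131 and 171 FPKM, with adjusted p-values of 1.00 and 0.849 in limma. A lysozyme gene, *lys-8*, was at 324 and 274 against 185 and 208 FPKM and was named after its value was seen. Together with *gst-10* and *lea-1* it made up the 3 of 34 genes with a higher level and an unadjusted p under 0.05 in limma. Over all genes that share was 1.12%, and genes lowered by DAF-16 held such cases too (below). The superoxide dismutase gene *sod-3*, a classical DAF-16 target, had 5.72 and 4.67 against 7.87 and 4.66 FPKM. *ftn-1*, which encodes ferritin, had 2.53 and 16.51 against 3.74 and 30.6 FPKM, with both libraries numbered 2 high.

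Genes known to be lowered by DAF-16 split in both directions. Of 10 such genes tested (12 listed) 4 stood higher in both pairs, 4 lower (38.4% and 15.7% of all genes), and 0 passed, with a median of -0.06. At an unadjusted p of 0.05 or less in limma, 3 of the 10 were higher and 0 lower (1.12% and 0.445% of all genes). Both cisplatin libraries were above both controls for 3 of the 10 and below both for 1 (15.1% and 4.21% of all genes). Relative to all genes the median was -0.19, but 0.14 without control replicate 1, -0.45 without control replicate 2 and -0.54 without cisplatin replicate 1. *dod-24* was at 436 and 252 against 38.02 and 51.04 FPKM, and *dod-17* at 110 and 74.8 against 19.8 and 19.7 FPKM. These 2 genes had log2 fold changes of 2.90 and 2.17, the highest of the listed pathway genes, with adjusted p-values of 0.176 and 0.209 in limma. At the other end were *ins-7*, an insulin-like peptide gene repressed by DAF-16, at 7.46 and 7.46 against 6.17 and 23.02 FPKM, and *dod-23* at 198 and 129 against 289 and 161 FPKM. The low value of *ins-7* thus rested on control replicate 2.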

How the data were processed

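Reads from poly(A)-selected RNA, paired-end on an Illumina HiSeq, were aligned by the authors with TopHat to WBcel235, reads with multiple mapping sites were filtered, and Cufflinks and Cuffdiff were run, with versions not given in the sources used here. The deposited FPKM values are per gene and library, with confidence bounds. The deposited table also holds the authors' own comparison (log2 fold changes, test scores, p-values and q-values), which was not used. Library columns were matched to samples by name. The labels state the dose as 60 µg/ml in the treatment field but as 0 µg/ml in a protocol common to all samples.

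The 88 genes with a failed estimate and genes with a mean under 0.5 FPKM were left out, leaving 15065. R 4.3.3 and limma 3.58.1 were used to fit log2(FPKM + 0.5), with a trended prior variance and Benjamini-Hochberg adjustment, two-sided, threshold 0.05. Intervals are 95%. P-values and intervals rest on a variance that joins the spread between the 2 libraries a group with that of other genes of similar level. They are thus not the spread of a gene alone: *age-1*, whose replicates differed by 0.04 and -0.04 on the log2 scale, had a standard error of 0.31. Coordinates and overlaps are from the Ensembl annotation of WBcel235. No sequence was used. The genes, the lists, which came from general knowledge, and the tests were chosen with earlier results of these data known. Named genes were the 8, those at either end of each list (2 a side) and the 2 nearest profiles of each of the 8. Alternatives were other pseudocounts (0.1 and 1), filters (none and 5 FPKM), scalings, failed estimates kept at 0, no trend, robust variances, a replicate block and each library left out.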

Additional observations from a re-analysis of the deposited data

How the results depend on the processing

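Under the 15 alternatives, 0 of the 8 pathway genes passed in limma, and the adjusted p ranged from 0.125, for *daf-18* with the replicate block, to 1.00. Of the 15, 7 leave fold changes as they are by construction, and under the other 8, 11 of 64 fold changes of the 8 genes reversed. After scaling libraries to 1 common median, which moves the median of all genes from 0.13 to -0.06, *age-1* was at -0.058 and *daf-16* at -0.17, and with quantile normalization (median 0.01) *daf-16* was at -0.078. With a library left out, fold changes ranged from -0.31 to 0.86 for *daf-2*, -0.022 to 1.03 for *pdk-1*, -0.028 to 0.58 for *akt-1*, -0.32 to 0.84 for *akt-2*, -0.083 to 0.86 for *sgk-1* and -0.16 to 0.23 for *daf-16*, negative without control replicate 1 in each and also without cisplatin replicate 2 for *daf-2* (-0.038) and *daf-16* (-0.048). Relative to the median of all genes they ranged from -0.30 to 0.33 for *age-1*, -0.15 to 0.44 for *daf-2* and -0.17 to 0.41 for *akt-2*. In these fits the lone library is assumed to vary like the other group, and the difference between replicates is not balanced between the groups.

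Over all genes, 0 passed in the main comparison (168 higher and 67 lower at a p of 0.05 or less before adjustment, 116 and 169 with 1 common median, 204 and 276 with quantile normalization, 1043 and 441 with the replicate block, 750 higher without control replicate 2, and 103 and 110 lower without control replicate 1 and cisplatin replicate 2), 1 was higher with a pseudocount of 1 and with robust variances, and between 0 and 18 were higher and between 0 and 7 lower with a library left out. With the replicate block 231 were higher and 138 lower, on 1 residual degree of freedom, and 0 without the trend. The differences between replicates in the 2 groups correlated across genes (Pearson r = 0.59), but the labels state no pairing, and the study writes of separate experiments without saying which libraries belong together. Of the other pathway genes 10 were higher with the block and between 0 and 2 with a library left out. The cause of these differences was not tested. Read counts are not given, so the depth behind a low value such as that of *pdk-1* is known only through its bounds.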
